A study of Mus musculus with 16 samples.

Results

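The translocase of the outer mitochondrial membrane (TOM complex) and its testis paralogue Tomm20l were followed through total RNA sequencing of whole mouse ovary and testis. The 9 genes, Tomm20l, Tomm20, Tomm22, Tomm40, Tomm40l, Tomm70a, Tomm5, Tomm6 and Tomm7, were taken by symbol from a count table of 38087 genes, and each had a single row there. Tomm20l was chosen by its counts in the testis, in CV and GF and against the ovary, so its levels are given as a description with no test. The other 8 were taken as named subunits and paralogues of the complex. The samples were conventionally raised mice (CV), which carry a gut microbiota, and germ-free mice (GF), reared without microbes. There were 4 ovary CV, 5 ovary GF, 4 testis CV and 3 testis GF libraries. All mice were strain C57BL/6j, fed ad libitum, aged 15 to 16 weeks and sampled between 2 and 4 hours of zeitgeber time, which counts from lights on. The ovaries came from animals labelled female and the testes from animals labelled male, although the title of the series speaks of female mice, so tissue and sex are a single factor. Whether each library is a separate animal is not stated, and p-values therefore measure the spread between libraries, which may be technical.

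Most mitochondrial proteins are made in the cytosol and enter through the TOM complex. Tomm20, Tomm22 and Tomm70a are its receptors: Tomm20 binds cleavable presequences, Tomm70a binds chaperone-held carrier proteins, and Tomm22 receives both and organises the complex. Tomm40 is the beta-barrel channel, and Tomm5, Tomm6 and Tomm7 are small subunits that help the complex assemble or hold together. Tomm20l and Tomm40l are paralogues of Tomm20 and Tomm40. Male germ cells replace several mitochondrial proteins with testis isoforms in the course of sperm formation, and the sperm midpiece packs its mitochondria around the flagellum.

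The bases before the start sites of Tomm20l, Tomm20 and Tomm22 are shown because these 3 genes had the most unlike tissue patterns of the receptors: Tomm20l was almost absent from the ovary, Tomm20 was lower in the testis and Tomm22 was higher there. The sequences are from RefSeq on GRCm38.p6, written 5′ to 3′ on the gene's strand, 250 bases each. They lie at chr12:71111178-71111427 (plus strand) for Tomm20l, chr8:126945922-126946171 (minus strand) for Tomm20 and chr15:79670618-79670867 (plus strand) for Tomm22. Capitals mark a match, on either strand, to NRF1 (GCGCA, any base, GCGC), GABP (CCGGAAG), CRE (TGACGTCA) or the A-MYB core (CCGTT).
Tomm20l: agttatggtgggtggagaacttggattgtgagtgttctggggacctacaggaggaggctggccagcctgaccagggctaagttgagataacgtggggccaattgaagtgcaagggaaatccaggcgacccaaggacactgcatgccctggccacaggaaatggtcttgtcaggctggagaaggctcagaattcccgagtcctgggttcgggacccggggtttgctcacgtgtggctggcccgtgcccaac
Tomm20: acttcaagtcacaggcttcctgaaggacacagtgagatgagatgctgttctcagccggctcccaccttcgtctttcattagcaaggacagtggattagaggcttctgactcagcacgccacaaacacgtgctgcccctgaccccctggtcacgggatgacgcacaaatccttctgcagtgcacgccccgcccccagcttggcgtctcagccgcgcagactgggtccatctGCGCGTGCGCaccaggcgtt
Tomm22: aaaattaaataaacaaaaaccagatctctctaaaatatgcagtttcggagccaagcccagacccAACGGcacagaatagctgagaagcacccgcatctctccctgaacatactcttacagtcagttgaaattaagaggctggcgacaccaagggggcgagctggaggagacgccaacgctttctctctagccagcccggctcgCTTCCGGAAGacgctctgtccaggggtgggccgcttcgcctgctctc

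No match to any of the 4 motifs lay in the Tomm20l sequence, which says only that these letters are not in this window. Tomm20 held 1 match to NRF1, a factor known for nuclear genes of mitochondrial proteins. Over the window of 300 bases that runs 50 bases past the start, Tomm22 held 3 matches to the GABP letters, an ETS factor known for the same gene class, and 1 to the A-MYB core. Overlapping matches on opposite strands were counted separately, and the capitals of Tomm22 nearest its start hold such a pair. Tomm70a held 2 GABP matches, and Tomm40, Tomm5 and Tomm6 held none. Of 32851 windows of that length, 4.6% held the NRF1 letters, 8.86% the GABP letters, 1.79% the CRE letters and 17.4% the A-MYB core. The Tomm20l window held 13 CpG dinucleotides, against 24 for Tomm20, 20 for Tomm22 and a median of 7 over all windows. A window was found for 7 of the 9 genes.

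Library totals were 12912251 to 15907297 counts in the ovary and 25880591 to 28266867 in the testis. Levels are in CPM, a count divided by its library's size, with the sizes scaled by the trimmed mean of M-values (TMM), and levels of different genes are compared only per kilobase of exon. The labelled tissues carried their markers. The summed level of 5 round spermatid genes was 1591 to 1781 CPM in the testis libraries and 0.349 to 0.965 CPM in the ovary libraries. That of 5 granulosa genes was 918 to 1825 CPM in the ovary and 60.7 to 68.2 CPM in the testis. The 5 Leydig genes did not mark the testis alone, at 998 to 1347 CPM there and 2210 to 3892 CPM in the ovary. The fits estimated a biological coefficient of variation between libraries of 4.17% for testis and 18.5% for ovary.

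Tomm20l was a testis transcript that was present at 0.34 of its conventional level in the germ-free testis. The gene lies on chromosome 12 at 71111428 to 71123221 of GRCm38, on the plus strand, with 720 exon bases in 4 blocks. The 4 testis CV libraries held 1020, 986, 959 and 1128 counts, or 52.9, 50.7, 48.5 and 55.2 CPM. The 3 testis GF libraries held 306, 360 and 370 counts, or 15.8, 17.6 and 18.8 CPM. Every GF library lay below every CV library. Group ranges were apart, in either direction, for 16.7% of all genes tested in the testis. Tomm20l was chosen for these values, so their separation is a description only. The means were 51.8 ± 2.89 CPM (SD, n = 4) and 17.4 ± 1.52 CPM (SD, n = 3), a log2 fold change of -1.56 (SE 0.064). Leaving out each testis library in turn kept this between -1.61 and -1.50. In the ovary the counts were 4, 0, 1 and 0 in the CV libraries and 0, 10, 3, 5 and 1 in the GF libraries. These few counts overlap between the groups. Summed, 5 counts in the CV ovary and 19 in the GF ovary gave a GF over CV ratio of 3 (95% interval 1.08 to 10.3), which covers counting error only and not the spread between libraries. Tomm20l fell below the filter on low counts in the ovary and was not tested there.

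In whole organs, fewer cells of a type and less RNA per cell cannot be told apart. Scaled to the libraries, Tomm20l was 749 times higher in the CV testis than in the CV ovary (95% interval 321 to 2309, counting error only). In GF animals the ratio was 83.9 (95% interval 53.4 to 140). Both ratios use the TMM-scaled library sizes, and their intervals do not cover the choice of scaling. With libraries scaled by their total count, mean Tomm20l was 38 CPM in the CV testis and 13 CPM in the GF testis. The change in the germ-free testis was among the larger in that comparison: 53 of 1638 called genes had a log2 fold change at least as large in size, Tomm20l included, and 22 of these were lower in GF. That rank describes the values for which the gene was singled out and supports nothing further.

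**Figure D1:**
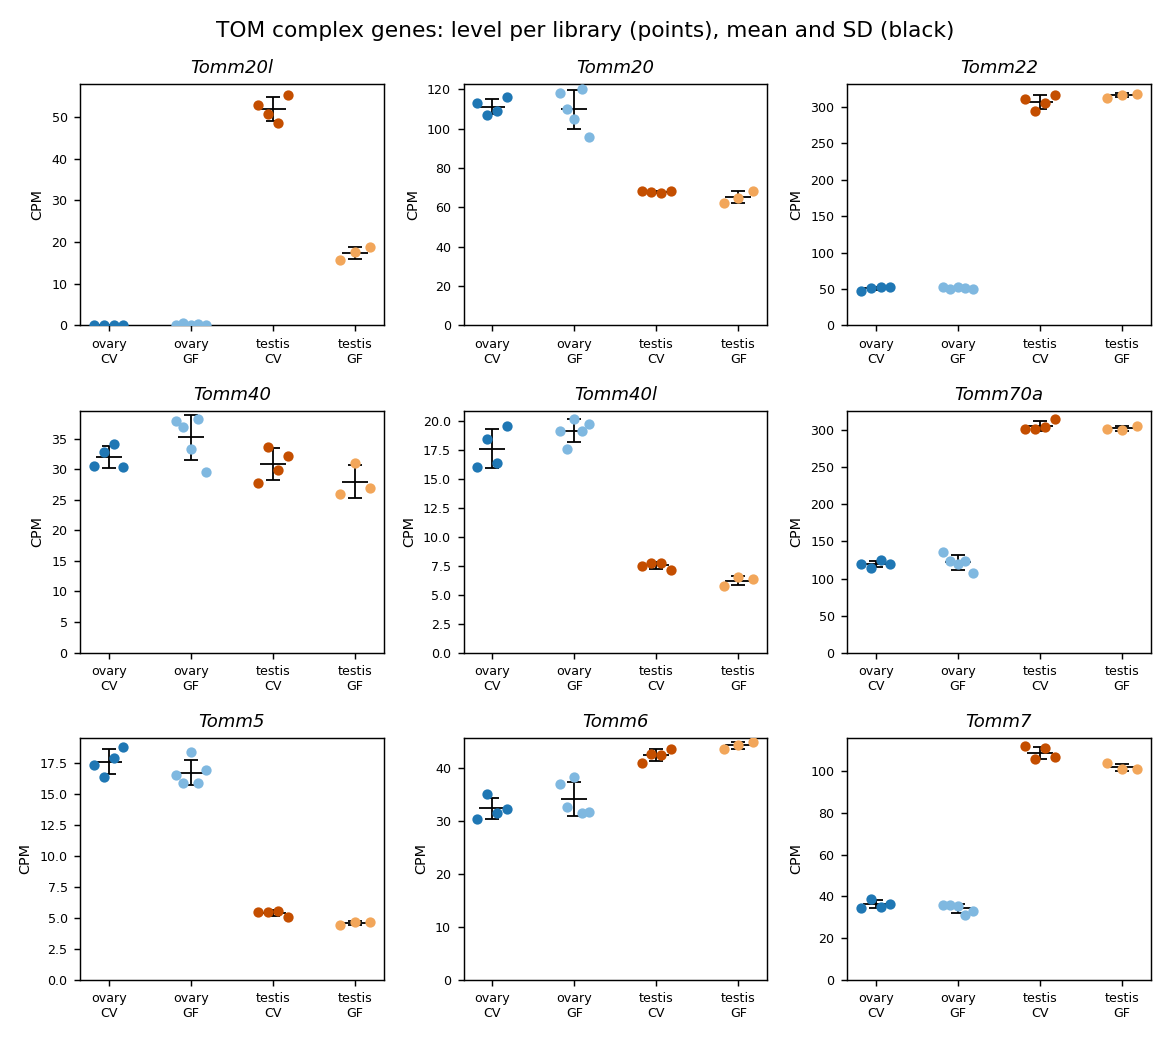
CPM (TMM-scaled, linear axes from 0) of the 9 genes in each of the 16 libraries (points), with group mean and SD (black), for ovary and testis of conventional (CV) and germ-free (GF) mice. Tomm20l sits near 0 in the ovary, at 48.5 to 55.2 CPM in the CV testis and at 15.8 to 18.8 CPM in the GF testis, and Tomm22, Tomm70a and Tomm7 are higher and Tomm20, Tomm40l and Tomm5 lower in the testis than in the ovary.

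Its counterpart Tomm20 showed no drop of this size. Tomm20, on chromosome 8 at 126930667 to 126945844 (minus strand), was at 68.2, 67.7, 67.2 and 68.4 CPM in the CV testis and at 62.3, 64.9 and 68.4 CPM in the GF testis. The groups overlap at the top. The log2 fold change was -0.04 (SE 0.0438, 95% interval -0.16 to 0.07), with an adjusted p of 0.657 in edgeR's quasi-likelihood test. Per exon length, Tomm20l made up 83.8% ± 0.649 (SD, n = 4) of the summed Tomm20 and Tomm20l level in the CV testis and 64.5% ± 1.02 (SD, n = 3) in the GF testis. All 4 CV libraries lay between 83.1% and 84.6%, and all 3 GF libraries between 63.3% and 65.2%. In the ovary the share was 0.404% ± 0.585 (SD, n = 4) in CV and 1.32% ± 1.39 (SD, n = 5) in GF. The share leans on annotated exon length: Tomm20 has 4906 exon bases against 720 for Tomm20l, and as a share of counts alone Tomm20l was 43.3% and 21.1% in the CV and GF testis. The longest run of identical bases between the 2 transcripts was 13, far shorter than a read.

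**Figure D2:**
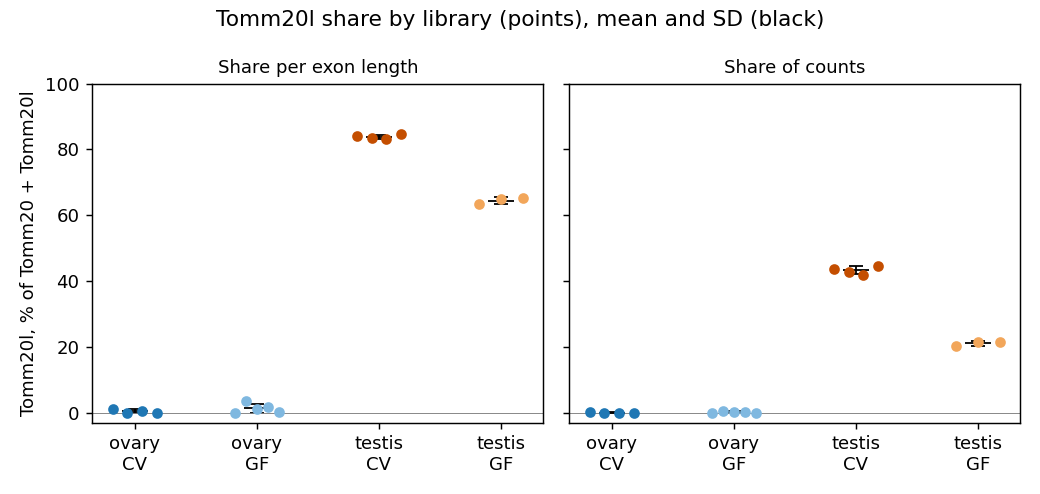
Share of Tomm20l in the sum of Tomm20 and Tomm20l, in percent, per exon length (left) and of counts (right), for each library (points) with group mean and SD (black). Per length, the testis libraries fall from 83.1 to 84.6% in CV to 63.3 to 65.2% in GF, and the ovary libraries stay at or under 3.53%.

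The other receptors stayed close to their conventional testis level in germ-free animals. Tomm22, on chromosome 15 at 79670861 to 79673400, was at 311, 295, 306 and 316 CPM in the CV testis and at 313, 317 and 318 CPM in the GF testis. Its log2 fold change was 0.06 (SE 0.0293, 95% interval -0.02 to 0.13; edgeR adjusted p = 0.278), and the groups overlap. Tomm70a, on chromosome 16 at 57121703 to 57156705, was at 302, 302, 305 and 316 CPM in CV and at 302, 300 and 306 CPM in GF. The log2 fold change was -0.00 (SE 0.0288, 95% interval -0.08 to 0.07; edgeR adjusted p = 0.971). For these 2 genes the intervals leave room for changes of no more than 0.13 on the log2 scale in either direction.

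The channel genes had lower GF means, but neither passed the test. Tomm40, on chromosome 7 at 19701313 to 19715438, was at 27.7, 33.7, 29.9 and 32.2 CPM in the CV testis and at 26, 31 and 26.9 CPM in the GF testis, with overlapping groups. The log2 fold change was -0.13 (SE 0.0688; edgeR adjusted p = 0.321). Its paralogue Tomm40l, on chromosome 1 at 171216011 to 171222514, was at 7.46, 7.76, 7.78 and 7.15 CPM in CV and at 5.78, 6.52 and 6.36 CPM in GF. Here all 3 GF libraries lay below all 4 CV libraries. The log2 fold change was -0.26 (SE 0.113, 95% interval -0.55 to 0.03), with an unadjusted p of 0.0256 and an adjusted p of 0.173 in edgeR's test. The Tomm40l row has 3304 exon bases in common with Nr1i3 on the opposite strand, which had 18 counts in all testis libraries together.

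Among the small subunits the germ-free testis values were separated from the conventional ones by narrow margins, and none passed the test. Tomm7, on chromosome 5 at 23838944 to 23844161, was at 112, 106, 111 and 107 CPM in CV and at 104, 101 and 101 CPM in GF. Its log2 fold change was -0.08 (SE 0.0376), with an unadjusted p of 0.0496 and an adjusted p of 0.256 in edgeR's test. Tomm5, on chromosome 4 at 45105208 to 45108114, ranged from 5.04 to 5.56 CPM in CV and from 4.44 to 4.68 CPM in GF. Its log2 fold change was -0.21 (SE 0.131; edgeR adjusted p = 0.407), resting on 86 to 110 counts a library. Tomm6, on chromosome 17 at 47686646 to 47688386, ranged from 41.1 to 43.7 CPM in CV and from 43.7 to 45 CPM in GF, a log2 fold change of 0.08 (SE 0.0505; edgeR adjusted p = 0.439). Reads of Tomm6 cannot be assigned to it alone. The row of the overlapping gene Prickle4 held between 24 and 51 more counts than Tomm6 in every library, so the same reads were evidently counted for both.

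Across the complex, 0 of the 8 tested genes were called in the germ-free testis at an adjusted p under 0.05, by edgeR and by DESeq2. In edgeR 2 of the 8 had an unadjusted p under 0.05, against 3939 of all 20269 genes tested. Of all 20269 genes tested, 8.08% were called, so a count of 0 in 8 is near that background. The group ranges were apart for 4 of the 8 (Tomm40l, Tomm5, Tomm6 and Tomm7), against 16.7% of all genes tested. The median log2 fold change of the 8 was -0.06, against 0.00 over all genes.

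**Figure D3:**
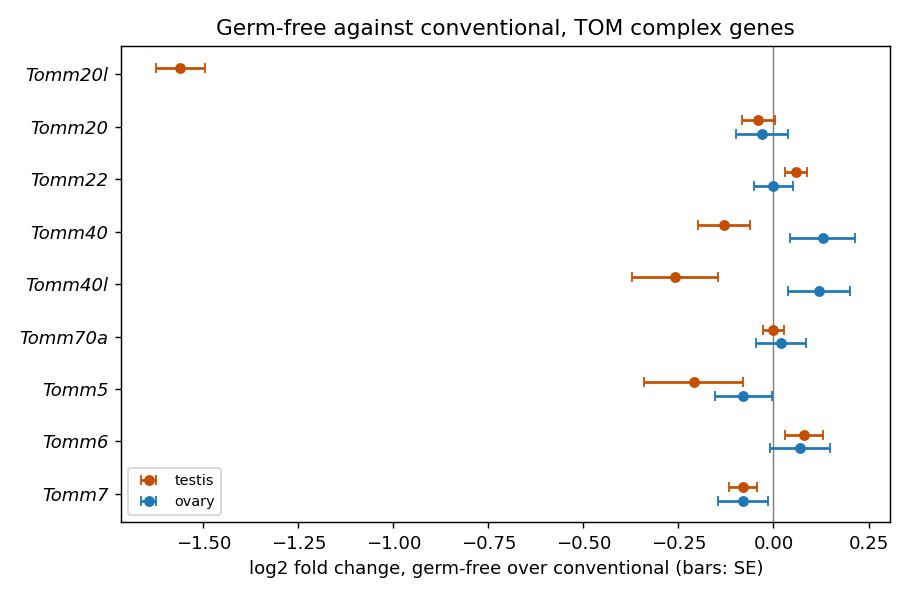
Log2 fold change of germ-free over conventional animals with its SE, for the 9 genes in testis (orange) and ovary (blue); Tomm20l has no ovary value because it was below the filter. Tomm20l lies at -1.56, and the other genes lie between -0.26 and 0.13 in both tissues.

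In the ovary, no subunit differed between germ-free and conventional animals beyond the spread of the libraries. Tomm20 was at 107 to 116 CPM in CV and 95.9 to 120 CPM in GF. Tomm22 was at 47.7 to 52.4 CPM and 49.6 to 53.2 CPM, and Tomm70a at 114 to 125 CPM and 108 to 136 CPM. The channel genes had the largest positive values: Tomm40 was at 31.9 ± 1.85 CPM (SD, n = 4) in CV and 35.2 ± 3.7 CPM (SD, n = 5) in GF, and Tomm40l at 17.7 ± 1.67 CPM (SD, n = 4) and 19.2 ± 1 CPM (SD, n = 5). Their log2 fold changes were 0.13 (95% interval -0.07 to 0.34) and 0.12 (95% interval -0.08 to 0.31). The group means of the small subunits Tomm5, Tomm6 and Tomm7 were 17.6 and 16.7, 32.4 and 34.3, and 36.2 and 34.3 CPM in CV and GF. The 8 log2 fold changes ran from -0.08 to 0.13 and all groups overlap, against 2.81% of all genes tested with ranges apart. By edgeR and by DESeq2, 0 of 8 were called, against 0.177% of the 18095 genes tested in edgeR. None of the 8 had an unadjusted p under 0.05 in edgeR, against 1172 of all genes tested.

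The difference between the testis and ovary responses was tested as an interaction. It was called for 0 of the 8 genes, by edgeR and by DESeq2, and for 0.132% of all 21977 genes. An unadjusted p under 0.05 in edgeR was reached by 2 of the 8 and by 1524 of all genes. The channel genes had the largest values. For Tomm40l the testis response minus the ovary response was -0.40 on the log2 scale (SE 0.122, 95% interval -0.67 to -0.13; unadjusted p = 0.00462, adjusted p = 0.397 by edgeR). For Tomm40 it was -0.28 (SE 0.127; unadjusted p = 0.0405, adjusted p = 0.688 by edgeR). The other 6 values lay between -0.15 and 0.04.

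Between the tissues, the receptors and the small subunits each held genes that were higher and genes that were lower in the testis. Among the 8 tested genes, the receptor Tomm22 had the largest rise in the testis, with means of 51 ± 2.24 CPM (SD, n = 4) in the CV ovary and 307 ± 8.75 CPM (SD, n = 4) in the CV testis, a log2 fold change of 2.61 (SE 0.0447; edgeR adjusted p = 2.1e-19). In GF animals it was 2.65 (SE 0.0431). The receptor Tomm70a was higher as well, by 1.38 (SE 0.0565) in CV and 1.34 (SE 0.0561) in GF. The receptor Tomm20 went the other way: its means were 111 CPM in the CV ovary and 67.9 CPM in the CV testis, a log2 fold change of -0.69 (SE 0.0607; edgeR adjusted p = 4.68e-09), and -0.73 in GF. A retrocopy of Tomm20, Gm14494 on chromosome 2, is 99.5% identical to its coding sequence over 435 bases. It held counts equal to 11.4 to 14.2% of those of Tomm20 in the ovary libraries and 20.5 to 25.7% in the testis libraries. With its counts added to Tomm20, an alternative chosen after seeing the data, the differences were -0.57 in CV and -0.60 in GF and were still called.

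The channel gene Tomm40 had close means in the CV tissues, 31.9 ± 1.85 CPM (SD, n = 4) in ovary and 30.9 ± 2.61 CPM (SD, n = 4) in testis. The log2 fold change was -0.03 (SE 0.0881, 95% interval -0.22 to 0.17; edgeR adjusted p = 0.786). In GF animals it was -0.31 (SE 0.0918; edgeR adjusted p = 0.00458), but this was not called with relative log expression (RLE) scaling (adjusted p = 0.114) or DESeq2 (adjusted p = 0.105). Tomm40 has 258 exon bases in common with the antisense gene Gm20512, which had 890 counts in all testis libraries and 49 in all ovary libraries. Without known strand use in the counting, reads of the 2 cannot be told apart there. Tomm40l was lower in the testis in both groups, with log2 fold changes of -1.20 (SE 0.0846) in CV and -1.60 (SE 0.092) in GF. Of the small subunits, Tomm7 was higher in the testis by 1.61 (SE 0.0557) in CV and 1.60 in GF, and Tomm5 was lower, at -1.69 (SE 0.0828) and -1.84. Tomm6 was higher by 0.41 (SE 0.0687) and 0.40, and this direction turned to -0.40 and -0.39 when libraries were scaled by their total count.

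These directions depend on how the very different libraries are scaled. Scaling by total count moved the median log2 fold change of all genes by -0.81 in CV and -0.79 in GF, and RLE scaling by 0.15 in both. The share of called genes that were higher in the testis was 51.3% with TMM in both CV and GF, and 38.6% and 38.8% with total counts. Under TMM, RLE and total count scaling, Tomm22, Tomm7 and Tomm70a stayed higher and Tomm20, Tomm40l and Tomm5 stayed lower in the testis. In CV animals 7 of 8 genes were called, against 90.3% of all genes; 4 were higher and 3 lower, against 46.3% and 44%. In GF animals all 8 were called, against 89.8%; 4 were higher and 4 lower, against 46.1% and 43.7%. These shares are near the background. With a log2 fold change of at least 1 required as well, 3 were higher and 2 lower in both, against 36.7% higher and 33.9% lower of all genes in CV and 36.5% and 33.5% in GF.

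**Figure D4:**
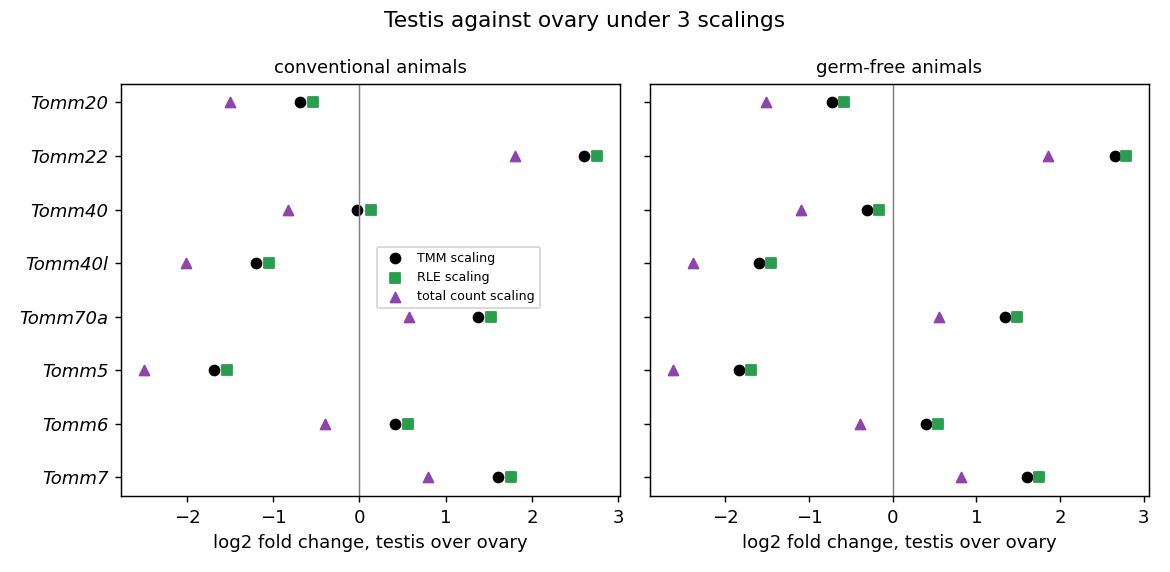
Log2 fold change of testis over ovary for the 8 tested genes in conventional (left) and germ-free (right) animals, with 3 ways of scaling the libraries. Tomm22, Tomm7 and Tomm70a lie above 0 and Tomm20, Tomm40l and Tomm5 below 0 with each scaling; Tomm6 in both panels and Tomm40 in the left panel change sign.

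Per exon length, the order of the levels changed between tissues and, for Tomm20l, with the microbiota. In the CV testis Tomm22 stood first at 186 CPM per kb, followed by Tomm7 at 96.8, Tomm20l at 72, Tomm6 at 37.6, Tomm70a at 31.3 and Tomm20 at 13.8. Tomm40 at 6.84 and Tomm5 at 6.19 CPM per kb overlapped, and Tomm40l was last at 1.47. All other neighbours in this order were apart. In the GF testis Tomm20l stood at 24.2 CPM per kb, below Tomm70a at 31 and above Tomm20 at 13.3, and no neighbours overlapped. In the CV ovary Tomm7 at 32.2, Tomm22 at 30.9 and Tomm6 at 28.7 CPM per kb did not differ beyond their spread. They were followed by Tomm20 at 22.7, Tomm5 at 20.3, Tomm70a at 12.3, Tomm40 at 7.08, Tomm40l at 3.44 and Tomm20l at 0.0933. The GF ovary had the same 3 genes first with overlapping values of 30.3 to 31 CPM per kb, and Tomm20 at 22.4 and Tomm5 at 19.3 overlapped there.

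Genes that work with the TOM complex were read from 8 lists of 77 symbols, of which 75 had a row. In the germ-free testis 2 of the 75 rose and 3 fell at an adjusted p under 0.05, against 3.67% and 4.41% of all genes. Timm9, a small chaperone that carries membrane proteins from TOM across the intermembrane space, rose from 11.9 ± 0.967 CPM (SD, n = 4) to 14.9 ± 1.42 CPM (SD, n = 3). Its log2 fold change was 0.33 (SE 0.0887; edgeR adjusted p = 0.0124). The CV libraries were at 12, 13, 10.7 and 12.1 CPM and the GF libraries at 16.1, 15.2 and 13.3 CPM, without overlap. The call was lost with DESeq2 (adjusted p = 0.051) and without testis CV replicate 3 (0.064), testis GF replicate 1 (0.125) or testis GF replicate 2 (0.0764) in edgeR. Timm21, a TIM23 subunit that contacts TOM from the inner membrane, fell from 23.1 ± 1.28 CPM (SD, n = 4) to 17.6 ± 1.96 CPM (SD, n = 3), a log2 fold change of -0.38 (SE 0.0735; edgeR adjusted p = 0.000442).

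The other 3 list calls in the testis were small. Gfer, the oxidase of the intermembrane space import route, fell by 0.15 on the log2 scale, from 122 to 109 CPM (edgeR adjusted p = 0.0342), and was not called without testis CV replicate 2 or 3 or testis GF replicate 2 or 3 (adjusted p from 0.0529 to 0.205). Gykl1, a testis glycerol kinase-like gene, fell by 0.11, from 772 to 709 CPM (edgeR adjusted p = 0.00651). Ldha, the somatic partner of the testis lactate dehydrogenase, rose by 0.15, from 1086 to 1196 CPM (edgeR adjusted p = 3.36e-05). None of the 5 was called when ovary and testis shared a single fit. In the SAM and porin list, the chaperone list and the mitophagy list, 0 of 9, 0 of 8 and 0 of 8 genes were called in the testis. Of all genes tested there 8.08% were called, so counts of 0 in lists this short are near that background. In the ovary 0 of 66 tested list genes were called by edgeR or DESeq2, against 0.177% of all genes tested in edgeR. There 5 had an unadjusted p under 0.05 in edgeR, against 1172 of all 18095 genes tested. In the interaction 0 of 75 were called by either tool, against 0.132% of all genes tested in edgeR. An unadjusted p under 0.05 was reached in edgeR by 7 of them, against 1524 of all 21977 genes.

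Between tissues, counts in the lists are read against the background of all genes: 36.7% were higher and 33.9% lower past both thresholds in CV, and 36.5% and 33.5% in GF. All 10 testis isoforms of mitochondrial proteins were higher in the testis in both groups. They were listed because they are testis isoforms, so this count is a description and is not read against the background. Spata19, a sperm mitochondrial protein, had 3 counts in the 4 CV ovary libraries and 39318 in the 4 CV testis libraries. Gk2, a testis glycerol kinase, had 4 and 82328, Pdha2, the testis subunit of pyruvate dehydrogenase, had 3 and 24627, and Gykl1 had 4 and 60962. Of their 9 somatic partners 7 were lower and 1 higher in the testis past both thresholds in both groups. They were listed as partners of the testis isoforms, so this count is a description as well. The higher one was Ldha, at 148 to 241 CPM in the CV ovary libraries and 1069 to 1105 CPM in the CV testis libraries. Cox7b fell from 72.6 to 7.74 CPM (log2 fold change -3.21), Cox6b1 from 92.5 to 22.9 (-1.99), and the carriers Slc25a4 from 163 to 41.4 (-1.95) and Slc25a5 from 174 to 39.9 (-2.10), from ovary CV to testis CV. For Tomm20, beside its paralogue Tomm20l, the same contrast gave -0.69.

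For the partners before and after TOM in the import route, list counts were small and no list was tested against all genes, so their values are a description. Past both thresholds, 36.7% of all genes were higher and 33.9% lower in the testis in CV, and 36.5% and 33.5% in GF. These shares and the list counts are with TMM scaling alone. Total count scaling moved the median log2 fold change of all genes by -0.81 in CV and -0.79 in GF. Counts past the threshold of 1 depend on that choice. Of 9 SAM, insertion and porin genes, which build and fill the outer membrane, 4 were higher and 3 lower in the testis past both thresholds in both groups. Mtch2 (log2 fold change 2.69 in CV), Mtx1 (3.49) and the porin Vdac2 (2.28) were higher and the porin Vdac1 was lower (-2.30). Of 8 cytosolic chaperones and cofactors, 3 were higher and 3 lower. Hsp90aa1 (2.95) and Dnaja2 (1.17) were higher, and Hsp90ab1 (-1.55) and Hspa8 (-1.73) lower. Of 10 genes of the intermembrane space, processing and insertion, 5 were higher and 2 lower: the peptidase Mipep (3.68), Gfer (3.01), Immp2l (3.30) and the presequence peptidase subunit Pmpcb (1.42) were among the higher. Of 13 TIM23 and motor genes, only 2 were higher and 0 lower: Pam16 (3.35) and Dnajc15 (1.91) were the higher ones. Timm8b (2.08) and Timm8a2 (6.35) were higher and Timm8a1 was lower (-1.93) among the 8 TIM22 and small TIM genes. The Timm8a2 value rests on 16 counts in the CV ovary (mean 0.216 CPM). That of Timm8a1 rests on 65 counts in the CV testis (mean 0.822 CPM). Of 8 mitophagy genes, 3 were higher and 2 lower, among them Mul1 (2.55), Pink1 (1.72), which builds up at TOM on damaged mitochondria, Fundc1 (-2.80) and Bnip3 (-1.70). Of all 75 list genes 68 were called in CV, against 90.3% of all genes, which is near the background. By direction, 42 were higher and 26 lower, against 46.3% and 44% of all genes. The higher ones include the 10 genes listed as testis isoforms.

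The neighbourhood of Tomm20l on chromosome 12 held both called and uncalled genes. Timm9 lies next to it, from 71123173 to 71136684 on the minus strand, and the ends of the 2 genes have 49 exon bases in common. In the germ-free testis, then, the 2 adjoining import genes had opposite signs. The 3 nearest named genes before Tomm20l with at least 1 CPM in the testis were Arid4a (log2 fold change -0.04), Psma3 (0.07) and Actr10 (-0.01), and none was called. After it came Timm9, Dact1 (0.04, not called) and Daam1, a formin that builds actin filaments, which fell from 108 ± 3.81 CPM (SD, n = 4) to 80.7 ± 2.26 CPM (SD, n = 3), a log2 fold change of -0.41 (SE 0.0389; edgeR adjusted p = 4.12e-10). Within 1000 kb on either side, 17 other genes were tested at this level, and 1 was called higher and 5 lower. Of all genes tested, which include genes under 1 CPM, 3.67% were called higher and 4.41% lower. The 4 lower ones besides Daam1, picked out after their values were seen, were 4930474H06Rik (-1.47), L3hypdh (-1.21), 2700049A03Rik (-0.15) and Ccdc175 (-0.13). L3hypdh rests on means of 1.31 and 0.555 CPM and lost its call without testis CV replicate 1 (edgeR adjusted p = 0.0702), testis GF replicate 1 (0.0792) or testis GF replicate 2 (0.0632). When ovary and testis shared a single fit, Timm9 (edgeR adjusted p = 0.39), 2700049A03Rik (0.648) and Ccdc175 (0.986) were not called.

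**Figure D5:**
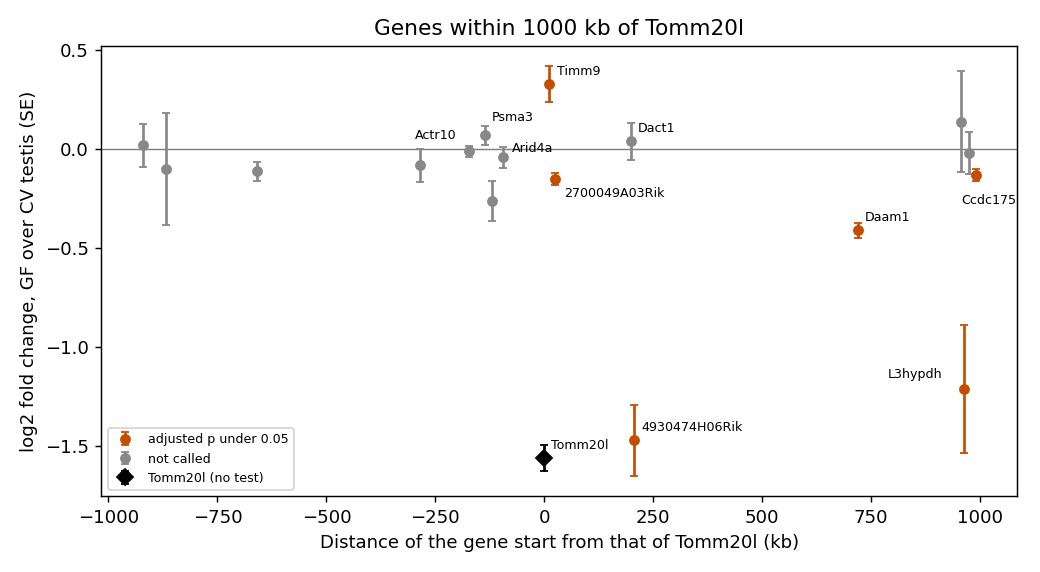
Log2 fold change (with SE) of germ-free over conventional testis for genes within 1000 kb of Tomm20l with a testis level of at least 1 CPM, against the distance of their lowest coordinate from that of Tomm20l in kb. The called genes (orange) all start after Tomm20l; Timm9 at 11.7 kb lies above 0 and 5 others below it.

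By Pearson correlation of log2(CPM + 0.5) over the 7 testis libraries, the 5 genes most like Tomm20l among 14232 compared were Ero1lb (r = 0.998), Dars (0.997), Rpl10l (0.996), Sel1l2 (0.994) and Adad1 (0.994). The 7 libraries form 2 groups, so r mainly follows the step between CV and GF and is given as a description. Ero1lb, an oxidase of the endoplasmic reticulum, went from 365 to 171 CPM, Dars, the aspartyl-tRNA synthetase, from 184 to 112, and Rpl10l, a testis ribosomal protein, from 201 to 142. Adad1 went from 411 to 287 CPM and Sel1l2 from 140 to 128.

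Markers of testis cell types had small shifts beside that of Tomm20l. The summed level of 5 round spermatid genes was 1627 to 1781 CPM in CV and 1591 to 1615 CPM in GF, and 2 of the 5 were called lower: Acrv1 (-0.16, edgeR adjusted p = 0.00125) and Spaca1 (-0.17, edgeR adjusted p = 0.0128), both acrosome genes. Spaca1 was not called without testis GF replicate 1 (0.0578). For 5 elongating spermatid genes it was 17322 to 18379 CPM and 16335 to 17284 CPM, and 1 was called lower, Odf1 (-0.15, edgeR adjusted p = 0.000131). For 5 spermatocyte genes it was 1551 to 1626 CPM and 1555 to 1603 CPM, and 1 was called higher, Spo11 (0.14, edgeR adjusted p = 0.0184). That call was lost with the replicate block (0.0626) and without testis CV replicate 3 (0.0739), testis GF replicate 1 (0.0574) or testis GF replicate 2 (0.207). For 5 spermatogonia genes it was 73.1 to 82 CPM and 76.8 to 83.7 CPM, for 5 Sertoli genes 167 to 184 CPM and 162 to 169 CPM, and for 5 Leydig genes 998 to 1347 CPM and 1246 to 1282 CPM, with no call. For 4 smooth muscle genes it was 136 to 156 CPM and 128 to 133 CPM, with Acta2 called lower (-0.16, edgeR adjusted p = 0.0393). The Acta2 call was lost with DESeq2 (0.0753), with the replicate block (0.132) and without testis CV replicate 1 or 4 or any 1 of the 3 testis GF libraries (0.0592 to 0.212). The summed level was, for 3 macrophage genes, 18.2 to 19.1 CPM and 15.4 to 16.4 CPM, with no call. Their log2 fold changes were -0.60 for Cd163, -0.48 for Cd68 and -0.12 for Csf1r. None of these 5 marker calls held when ovary and testis shared a single fit. The summed levels did not overlap between CV and GF for the round spermatid, elongating spermatid, smooth muscle and macrophage lists. Of all single genes tested in the testis, 16.7% had group ranges apart and 8.08% were called. No marker found was at 0. The part of these shifts in the lower Tomm20l was not tested.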

How the data were processed

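For the 16 libraries the authors deposited a single table of raw counts, as whole numbers. Per the labels' protocols, these were stranded, ribosomal RNA depleted, paired-end total RNA libraries. Per the submitters' processing notes, STAR 2.4.0i and build mm10 were used. How reads were counted, on which annotation and with or without strand is not given in the sources used here, so reads of overlapping, antisense or near-identical genes could not be assigned with certainty. Positions and exon lengths were matched by gene ID from GENCODE M21 on GRCm38 (36308 of 38087 genes).

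Counts were tested with edgeR 4.0.16 (R 4.3.3; quasi-likelihood F test, robust, TMM scaling, filterByExpr), with germ-free against conventional fitted within each tissue, and tissue and interaction contrasts in a joint fit of the 4 groups. P-values were adjusted by Benjamini-Hochberg over all genes tested; called means an adjusted p under 0.05. The SE is the log2 fold change divided by the root of F, and 95% intervals use it with the residual degrees of freedom alone, which makes them wider than the tests. Count ratios have exact binomial intervals. The fits were tested on simulated data. Replicate pairs of a group differed by more than sampling noise (chi-square per degree of freedom 2.37 to 34.3 over 25 pairs), so no library was merged.

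The genes, lists and tests were chosen with earlier results of these data known. Named were all 9 genes, up to 4 called genes per list with the smallest p, the 3 nearest neighbours on each side of Tomm20l with at least 1 CPM and a symbol that is not predicted, and the 5 genes most like it. A symbol with several rows was taken from the row with most counts. Ovary libraries of the same replicate number deviated together (correlations of deviations 0.366, 0.246, 0.2 and 0.36 for numbers 1 to 4). The labels name no pairs, and libraries of unlike numbers were not compared, so pairing is not established. Alternatives were RLE and total count scaling, no filter, DESeq2 1.42.0, a replicate block, a joint fit, leaving out each library, and adding the Tomm20 retrocopy.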

Additional observations from a re-analysis of the deposited data

How the results depend on the processing

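The count of called TOM genes was 0 of 8 under every alternative run in the testis, ovary and interaction comparisons. Between tissues it was 7 in CV (8 with total counts) and 8 in GF (7 with RLE scaling or DESeq2), in each case through Tomm40. The replicate block, which treats libraries of the same number as belonging together, raised the ovary's called genes from 32 to 97. It gave Tomm20 a log2 fold change of 0.02 there and changed no call among the 8 genes. Ovary genes called were 90 with DESeq2 and 93 in the joint fit, and 25 to 33 without single libraries. Testis genes called went from 1638 to 122 in the joint fit, where both tissues had 1 dispersion, and to 996 to 2084 without single libraries (996 without testis GF replicate 2). Interaction genes called went from 29 to 115 with DESeq2 and to 13 to 37 without single libraries. The testis replicate numbers gave correlations of -0.0423, 0.0148 and -0.0252 and mark no pairing.

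The sign of these values turned under some alternatives. Leaving out single libraries gave ranges of -0.06 to 0.02 for Tomm20 and -0.02 to 0.06 for Tomm70a in the ovary. For the interaction they were -0.06 to 0.03 for Tomm6 and -0.05 to 0.01 for Tomm7 (0.01 with total counts). For Tomm40 between CV tissues the range was -0.07 to 0.02, with 0.13 under RLE scaling, 0.11 with DESeq2 and -0.83, then called, with total counts. Tomm6 between tissues turned to -0.40 (CV) and -0.39 (GF) with total counts. The Tomm20l share was 43.3% and 21.1% in CV and GF testis without division by length. The causes were not tested. With CPM of the raw total, 34 of 36 group levels moved by more than 1 SD, testis levels down and ovary levels up. In the GF tissue contrast Tomm40 lost its call at -0.16 (RLE) and -0.17 (DESeq2).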
